A study of Mus musculus with 32 samples.

Results

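This report follows 37 genes of glucose metabolism and of the response to low oxygen in BV-2, an immortal cell line derived from mouse microglia, which are the macrophages that live in the brain. They were taken by name: every row of the deposited table whose gene symbol is on a list of 37 symbols was kept, which gave 37 of 45706 genes. The list covers glucose uptake (Slc2a1), the hexokinases (Hk1, Hk2, Hk3), the steps from glucose 6-phosphate to the triose phosphates (Gpi1, Pfkl, Pfkm, Pfkp, Pfkfb3, Aldoa, Aldoc), the steps from there to pyruvate (Tpi1, Gapdh, Pgk1, Pgam1, Eno1, Eno2, Pkm), lactate formation and transport (Ldha, Ldhb, Slc16a1, Slc16a3), the entry of pyruvate into mitochondria (Pdk1, Pdk3, Pdha1, Mpc1, Mpc2), the glycerol phosphate shuttle (Gpd2), the hypoxia response (Hif1a, Vegfa, Egln1, Egln3, Bnip3) and the pentose phosphate pathway (G6pdx, Pgd, Taldo1, Tkt). All 37 IDs were found in GENCODE M21, the annotation of mouse build GRCm38 used here.

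Glycolysis splits glucose into pyruvate in the cytosol, and pyruvate then either enters mitochondria or is reduced to lactate and exported. The transcription factor HIF-1, whose alpha subunit is made from Hif1a, binds the promoters of many glycolytic genes when oxygen is low, while prolyl hydroxylases such as those made from Egln1 and Egln3 mark the subunit for destruction when oxygen is present and are themselves HIF targets. Macrophages and microglia that meet bacterial products are known to shift towards glycolysis and lactate, and the pentose phosphate pathway, entered through G6pdx, gives them NADPH for the oxidative burst.

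The study asked what 3 microRNAs do to gene expression in resting and in activated microglia. Wild-type BV-2 cells were transfected with a synthetic duplex that stands in for 1 mature microRNA (a mimic: miR-29a-3p, miR-146a-5p or miR-7a-5p) or with a scramble duplex as negative control. Each mimic was combined with vehicle or with lipopolysaccharide (LPS, a bacterial cell wall component) at 10 ng/ml for 24 h, which gives 8 groups of 4 libraries, 32 in all. The labels place LPS before transfection and the study's methods place it after, so the order is not settled here. All groups share 1 cell line without further alleles, the replicates of a group are numbered 1 to 4 in the labels, and the study's methods describe them as independent experiments with this line. The labels call the cells glioblastoma and attach mouse ages to some libraries, which cannot apply to a cell line.

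Total restored counts per library, in units of 1e6, ran from 1.14 to 20.5. The deposited table had lost its decimal marks, which were put back by a statistical model before anything else was done. Of the members, 36 had readings with a posterior of 0.9 or more in all 32 libraries, and Aldoa had 1 uncertain reading (library 3 of vehicle miR-146a, posterior 0.82), so that Aldoa was not tested against or within that group. Libraries 2 to 4 of vehicle miR-7a stood apart: small structural RNA genes took 37.2%, 33.9% and 36.8% of their counts, against 4.18% in library 1 of that group and 2.58% to 17.4% in the other groups. Of 10 macrophage markers 9 had a median above 10 CPM (counts per 1e6 counts), but Csf1r was near 0. All 5 astrocyte and all 5 neuron markers had a median below 1 CPM, the summed level of the 5 oligodendrocyte markers stayed at 17.8 CPM or less, and among 4 endothelial markers Flt1 alone had a median above 10 CPM (131 to 348 CPM). The summed level of 5 LPS response genes was 9.48 to 52.3 CPM in vehicle libraries and 660 to 3537 CPM in LPS libraries, so the groups did not overlap.

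The microRNAs that the mimics are named for have these mature sequences in RefSeq (GRCm38.p6), shown 5′ to 3′ because their seeds decide which transcripts they can pair with. Capitals mark the seed, bases 2 to 8, and the 3 seeds differ from each other:
mmu-miR-7a-5p: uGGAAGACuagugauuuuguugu
mmu-miR-29a-3p: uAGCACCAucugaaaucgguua
mmu-miR-146a-5p: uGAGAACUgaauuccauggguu

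Matches to these seeds were counted in the longest annotated 3′ untranslated region of each protein-coding gene, as the reverse complement of bases 2 to 8 or of bases 2 to 7 followed by A. All 37 members had such a region. The miR-29a match was held by 2 of the 37 members (5.41%), Slc16a1 and Vegfa, against 15.99% of 20681 genes. For miR-7a the members were Gpi1, Pfkfb3, Aldoc, Eno2, Ldha, Slc16a3, Pdk3, Pdha1 and Egln3, 9 of 37 (24.3%) against 23.2% of all genes, and for miR-146a they were Hk2, Aldoc, Slc16a3, Pdk1 and Pdk3, 5 of 37 (13.5%) against 18.1%. The median length of the region was 1079 bases in the members and 958 bases in all genes. A match describes the letters and does not show that the transcript is bound. The miR-29a matches and the strongest kind of match (bases 2 to 8 followed by A) for the other microRNAs in Hk2 and Aldoc are printed with their match in capitals, to show the letters that these counts rest on:
Vegfa, chr17:46017162-46017184, minus strand, for miR-29a: ttatttatTGGTGCTActgttta
Slc16a1, chr3:104655788-104655810, plus strand, for miR-29a: tctaccagTGGTGCTcagtgcag
Aldoc, chr11:78327004-78327026, plus strand, for miR-7a: gggtacagGTCTTCCAgggactg
Hk2, chr6:82726205-82726227, minus strand, for miR-146a: ttgtttcaAGTTCTCActgcata

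Levels are given as CPM with library sizes scaled by TMM, a method that sets the libraries to a common scale through the genes that change little, and values in a row are always libraries 1 to 4 of a group in order. Tests are limma voom fits across all genes that passed a filter on low counts, with p-values adjusted by Benjamini-Hochberg over all of them, and a gene is called at an adjusted p under 0.05. Changes are log2 fold changes with the standard error (SE) of 4 against 4 libraries. After an adjusted p, "kept in n of 8" says how many of the 8 fits that leave out 1 library keep the call, where not all do. Where same-numbered libraries deviated together, a fit with the replicate number as a block also applies, and its adjusted p is given with the counts or with the gene where it changes the call. Ldhb, the heart-type lactate dehydrogenase subunit, stood between 0 and 0.303 CPM and passed the filter in no comparison. Eno2, the neuronal enolase, ranged from 0 to 2.35 CPM and was tested in 5 of the 13 comparisons, never called. Per kilobase of exon, Aldoa, Pgk1 and Pgam1 stood highest (889, 875 and 668 CPM per kb, mean of the 8 groups), and among the hexokinases Hk3 (79.4) and Hk2 (51.6) stood above Hk1 (12.2). Reads of Gapdh, Aldoa, Pgam1, Ldha and Eno1 can be shared with near-identical pseudogene or retrogene copies, so their levels are uncertain to that extent. In total RNA a lower level in every cell cannot be told apart from a change in some of the cells. Together the 37 members took 2.16% to 3.16% of the counts in vehicle scramble, 2.02% to 2.25% in vehicle miR-7a, 2.12% to 2.67% in vehicle miR-29a, 1.73% to 2.20% in vehicle miR-146a, 2.09% to 2.24% in LPS scramble, 1.51% to 1.84% in LPS miR-7a, 1.28% to 1.78% in LPS miR-29a and 1.77% to 2.26% in LPS miR-146a.

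**Figure D1:**
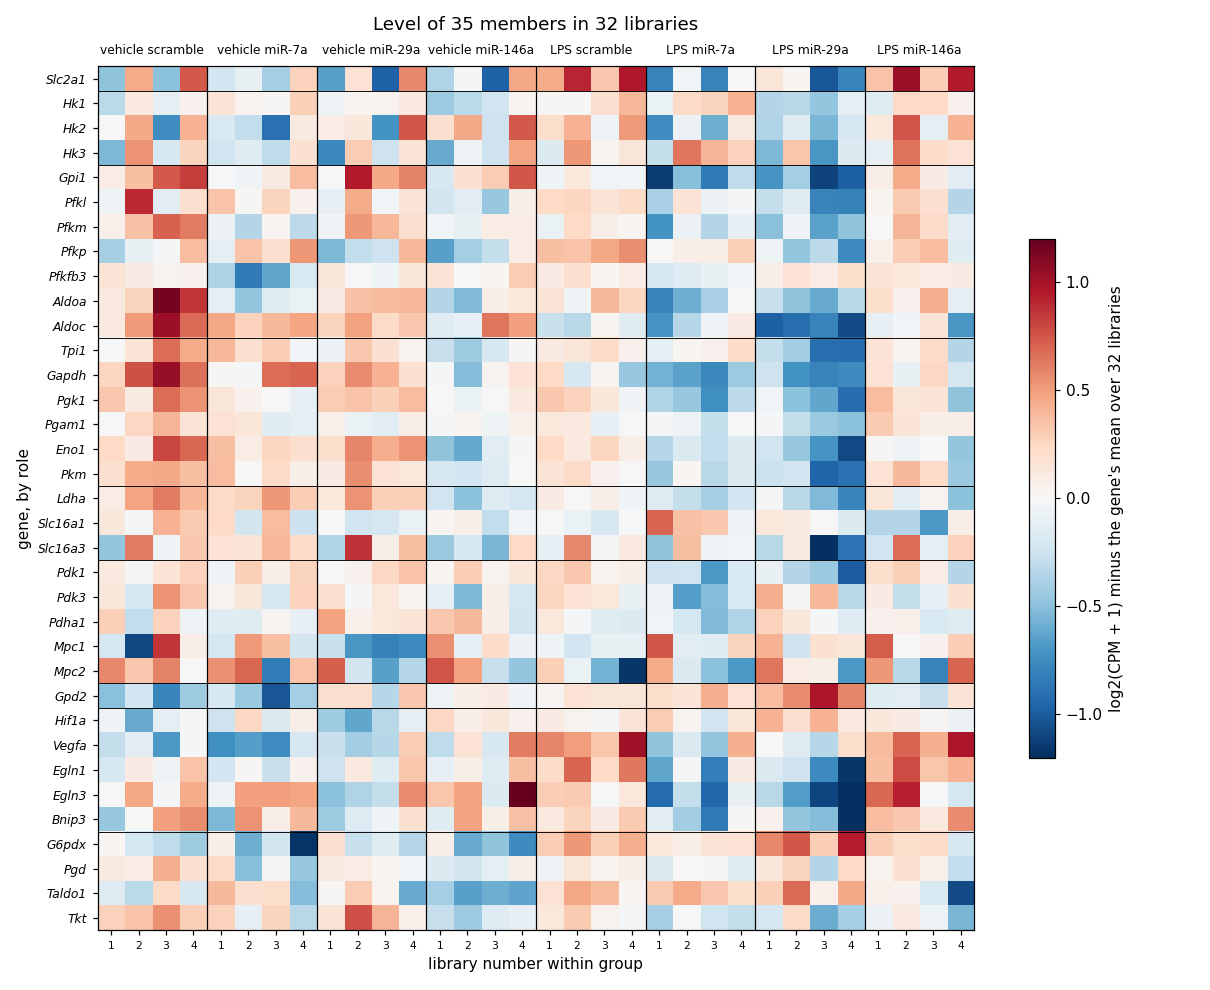
Level of the 35 members above the low-count range (rows, ordered by role) in each of the 32 libraries (columns, 4 per group), as log2(CPM + 1) minus the gene's mean over all libraries. In LPS miR-29a 18 of the 35 members are below their mean (blue) in all 4 libraries, Eno1 lowest in library 4 (752 CPM), while Pfkfb3, Gpd2, Hif1a, G6pdx and Taldo1 are above it. The like shares over all genes were not computed. G6pdx is above its mean (red) in 15 of the 16 LPS libraries.

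The first question was what LPS alone did to these genes, in cells with the scramble mimic. LPS raised 3 of 36 members tested and lowered 2. The risen genes were Vegfa (the vascular growth factor and HIF target), Gpd2 (the mitochondrial glycerol phosphate dehydrogenase) and G6pdx (the entry enzyme of the pentose phosphate pathway), and those that fell were Aldoc (aldolase C) and Gapdh. Over all genes tested 9.5% rose and 8.36% fell, so the members' shares lay near the background in both directions. The median log2 fold change was -0.05 over members and 0.01 over all 11992 genes. The calls with the replicate number as a block, which applies here because same-numbered libraries deviated together, were 6 higher and 4 lower (all genes 14.5% and 15.5%), and, with the block's adjusted p in brackets, added Slc2a1 (0.0103), Egln1 (0.025) and Pfkp (0.0188) as higher and Gpi1 (0.0498) and Mpc2 (0.0146) as lower. Within the block 9, 11, 4 and 4 members were called without replicate numbers 1 to 4 (all genes 25.2%, 29.4%, 17.6% and 12.3%). Gpd2, Vegfa and G6pdx kept their call in all 8 fits that leave out 1 library, Aldoc in 4 and Gapdh in 2. Without library 4 of LPS scramble 3 members were called and neither Gapdh nor Aldoc was among them, and without library 1 of vehicle scramble 8 were called.

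The same treatment was then read in cells with each mimic, in libraries that do not overlap with those above or with each other. With miR-29a, LPS lowered 16 of 35 members and raised 4, where all genes gave 13.9% lower and 12.7% higher. The 16 included 5 of 6 genes of the lower glycolytic steps and 5 of 7 of the upper steps. The block, which applies here, gave 18 lower and 5 higher (all genes 22.4% and 19.4%), adding Pgam1 (0.045) and Slc16a3 (0.00343) as lower and Taldo1 (0.0403) as higher. With miR-7a, 6 of 35 fell and 0 rose (all genes 3.69% and 2.68%): Gpi1, Aldoc, Gapdh, Pgk1, Eno1 and Ldha. This count was 2 when library 3 of LPS miR-7a, library 3 or library 4 of vehicle miR-7a was left out, and 3 of the vehicle libraries are the ones rich in structural RNA. With miR-146a, G6pdx rose as the 1 call among 34 members and 0 fell (all genes 2.92% and 1.61%). The G6pdx call was lost without library 1, 2 or 3 of LPS miR-146a, or library 2, 3 or 4 of vehicle miR-146a, while 2 members were called without library 4 of LPS miR-146a. The members' median was -0.38 with miR-29a, -0.25 with miR-7a and 0.15 with miR-146a, beside -0.01, 0.03 and -0.02 over all genes.

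**Figure D2:**
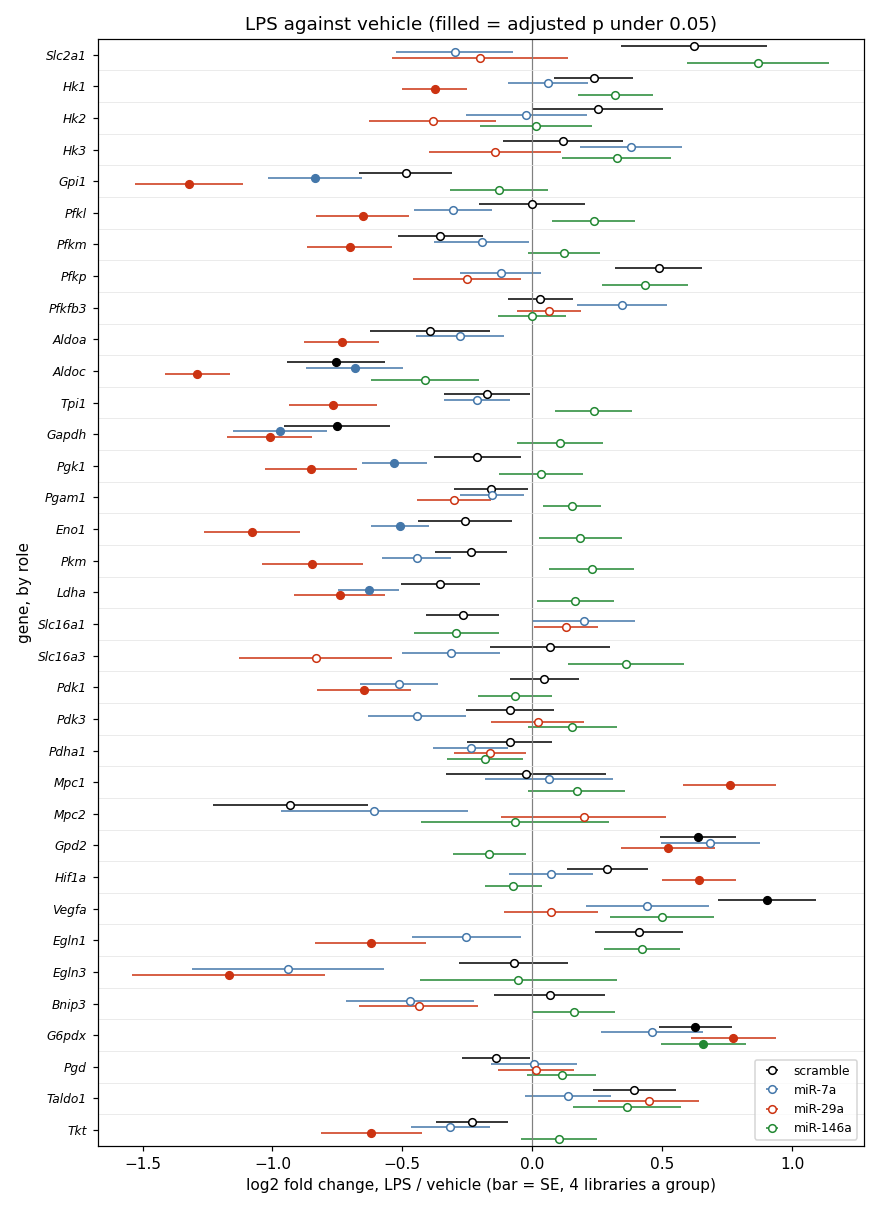
Log2 fold change of LPS against vehicle (horizontal axis, bar = SE, 4 libraries a group) for 35 members by role, in cells with each mimic or scramble. Filled points passed the test, and they number 20 for miR-29a, 6 for miR-7a, 5 for scramble and 1 for miR-146a.

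The second question was what each mimic did to LPS-treated cells. These 3 comparisons share the 4 LPS scramble libraries and are not independent of each other. With miR-29a, 13 of 36 members were lower than with scramble and 0 were higher, while 2.61% of all genes were lower and 2.17% higher. The 13 were Slc2a1, Hk2, Gpi1, Pfkl, Pfkp, Aldoa, Aldoc, Tpi1, Eno1, Pkm, Vegfa, Egln1 and Egln3. The median was -0.56 over members and 0.01 over all 12908 genes tested, and 25 of the 36 members had a negative change. In 17 members every miR-29a library lay below every scramble library, as did 5.99% of all genes, and in 1 (Gpd2) they lay above, as did 7%. With the replicate block, which applies to all 3 of these comparisons, 24 members were lower and 2 higher (all genes 10.1% and 9.82%). The count without the block rested on single libraries: it was 2 without library 4 of LPS scramble, 5, 8 and 6 without its libraries 1, 2 and 3, and 3 without library 3 of LPS miR-29a, always lower. Pfkp and Aldoc kept their call in all 8 fits that leave out 1 library, Gpi1 in 7, and Vegfa in 1. Within the block, leaving out replicate numbers 1 to 4 in turn left 24, 24, 26 and 24 members called (all genes 12.8%, 10.9%, 15.9% and 18.6%). With its adjusted p in brackets, the block added Hk1 (0.00316), Hk3 (0.0113), Pfkm (0.00346), Gapdh (0.0021), Pgk1 (0.000503), Pgam1 (0.0186), Ldha (0.01), Slc16a3 (0.00187), Pdk1 (0.00177), Bnip3 (0.00722) and Tkt (0.0204) as lower and Mpc2 (0.0453) and Gpd2 (0.00427) as higher.

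With miR-7a, Slc2a1 and Pgk1 were lower, 2 of 36, and 0 members were higher (all genes 0.976% and 1.51%). The members' median was -0.32, that of all genes 0.01, and 22 of 36 members had an unadjusted p under 0.05, as had 17.4% of all genes. In 13 members every miR-7a library lay below every scramble library, which 5.48% of all genes did, and in 0 above (5.9%). The block gave 18 lower and 1 higher member (all genes 8.24% and 7.63%), and DESeq2 gave 9 lower (2.97%). The block added, again with its adjusted p, Hk2 (0.00177), Gpi1 (0.00156), Pfkm (0.0267), Pfkp (0.0146), Aldoa (0.00179), Gapdh (0.0139), Eno1 (0.0064), Pkm (0.0208), Ldha (0.0267), Pdk1 (0.00265), Pdk3 (0.0162), Vegfa (0.000307), Egln1 (0.000255), Egln3 (0.0337), Bnip3 (0.00529) and Tkt (0.0129) as lower and Slc16a1 (0.0424) as higher. Leaving out replicate numbers 1 to 4 in turn within the block left 13, 10, 9 and 19 members called (all genes 14%, 7.46%, 6.46% and 14.4%). Without the block the count was 0 without library 3 of LPS miR-7a or without library 1, 2 or 4 of LPS scramble, 1 without library 1 or 2 of LPS miR-7a or library 3 of LPS scramble, and 6 without library 4 of LPS miR-7a. With miR-146a, 0 of 36 members were called by limma, edgeR or DESeq2 (all genes 2.3%, 1.23% and 5.32%). By limma 5 members stood at an unadjusted p under 0.05, as did 17.6% of all genes. The block called Eno1 (0.0286) and Taldo1 (0.0209) lower and Mpc1 (0.0478) higher (all genes 7.86% lower and 7.34% higher). It called 1, 0, 0 and 5 members without replicate numbers 1 to 4 (all genes 8.98%, 3.8%, 5.81% and 20.2%).

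**Figure D3:**
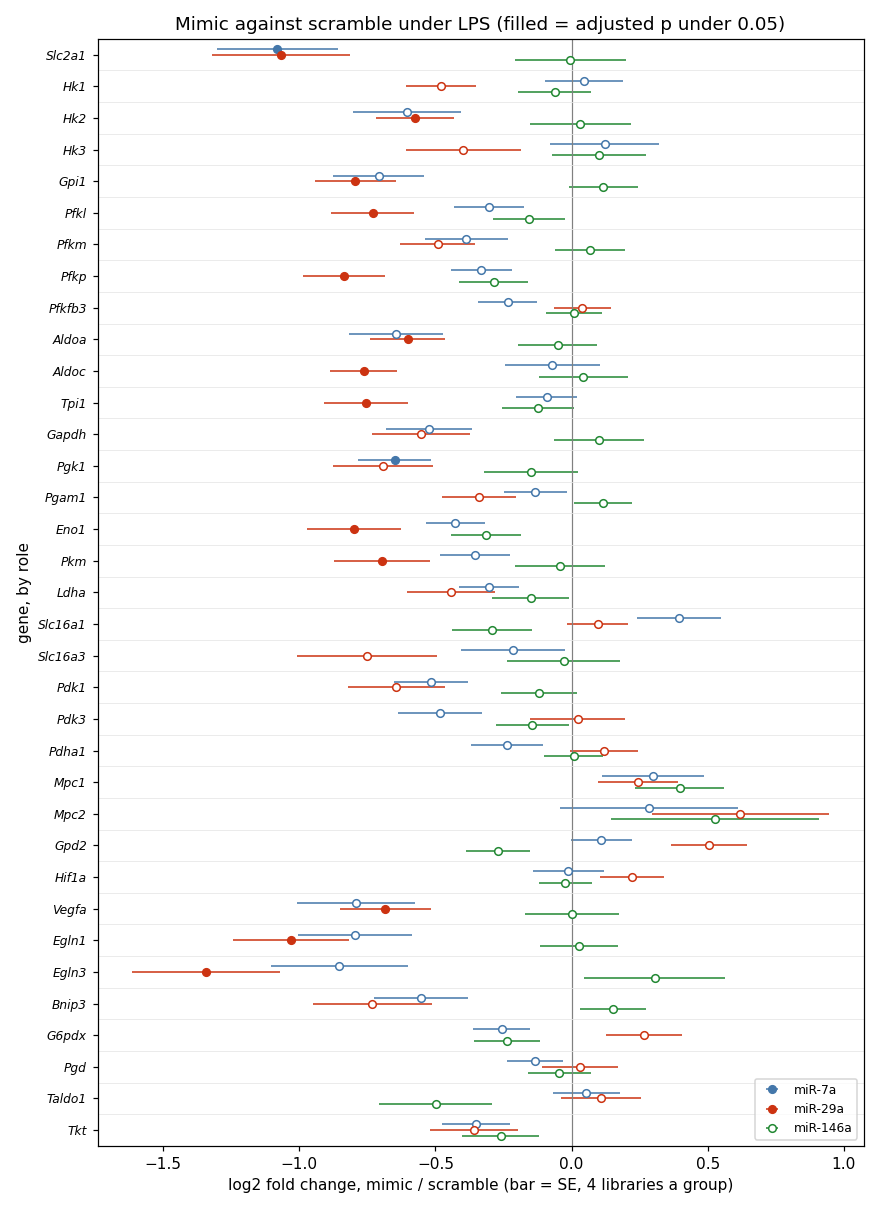
Log2 fold change of each mimic against scramble in LPS-treated cells (horizontal axis, bar = SE, 4 libraries a group) for 35 members by role. Filled points passed the test: 13 with miR-29a, all lower, 2 with miR-7a (Slc2a1 and Pgk1) and 0 with miR-146a.

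Under vehicle, 0 members were called for any mimic by limma. For miR-146a 5 were called, all lower, without library 1 of vehicle scramble (4.35% of all genes lower). Over all genes the called shares were 0.046% for miR-7a, 0.0176% for miR-29a and 1.6% for miR-146a. At an unadjusted p under 0.05 stood 4 of 35 members for miR-7a (12.2% of all genes), 2 of 35 for miR-29a (10.4%) and 10 of 34 for miR-146a (24.9%). The members' median was -0.25 under miR-146a (all genes -0.02), -0.13 under miR-7a (-0.01) and -0.12 under miR-29a (0.00). With miR-146a every library lay below every scramble library in 7 of 34 members, Eno1, Gapdh, Ldha, Pgd, Pkm, Taldo1 and Tkt, and in 8.03% of all genes, although limma called none of the 7. They lay above in 2, Gpd2 and Hif1a (7.68%). The like counts were 3 of 35 below and 0 above with miR-7a (all genes 4.85% and 2.72%) and 0 of 35 either way with miR-29a (3.05% and 3%). edgeR called 0 members for each mimic. DESeq2 called 1 lower for miR-7a (all genes 0.984%), 0 for miR-29a (0.755% in either direction), and 6 lower and 1 higher for miR-146a (4.77% and 5.2%). Whether a mimic acted differently under LPS than under vehicle was tested directly as an interaction. It was called for 0 of 35 members with each of miR-7a, miR-29a and miR-146a (all genes 0.00847%, 0.0168% and 0.00835%). Of these members 5, 17 and 5 had an unadjusted p under 0.05, and of all genes 5.29%, 6.56% and 11.1% did. edgeR called 0 in each (all genes 0.00847%, 0.0168% and 0%). DESeq2 called 0 for miR-7a and miR-29a (0.517% and 0.134%) and 1 member lower for miR-146a (all genes 0.15%). With the block, Vegfa was called for miR-29a (-0.81, adjusted p = 0.037, all genes 0.134%). Slc2a1 was called for miR-7a (-0.96, adjusted p = 0.0379, all genes 0.195%), but the pairing rule was not met by LPS against vehicle with miR-7a or by miR-7a under vehicle, and this value rests on both.

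Slc2a1 (chr4:119108711-119137983) encodes GLUT1, a glucose carrier of the plasma membrane. Slc2a1 read 271, 376, 250 and 388 CPM in LPS scramble, 114, 194, 114 and 200 in LPS miR-7a, 220, 202, 97.9 and 115 in LPS miR-29a and 252, 408, 244 and 386 in LPS miR-146a. Under vehicle, Slc2a1 read 142, 272, 141 and 333 CPM in vehicle scramble, 170, 187, 151 and 241 in vehicle miR-7a, 126, 224, 101 and 298 in vehicle miR-29a and 155, 196, 101 and 275 in vehicle miR-146a. Libraries 2 and 4 were the highest in every group except LPS miR-29a, where libraries 1 and 2 were. The LPS miR-7a and LPS miR-29a libraries all lay below all LPS scramble libraries, with log2 fold change -1.08 ± 0.22, adjusted p = 0.0318, kept in 3 of 8 and log2 fold change -1.07 ± 0.25, adjusted p = 0.037, kept in 2 of 8. LPS miR-146a overlapped LPS scramble (adjusted p = 0.994). The LPS effect was 0.62 ± 0.28 with scramble and 0.87 ± 0.27 with miR-146a (adjusted p = 0.144, with the block adjusted p = 0.0103 and adjusted p = 0.0999).

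Hexokinases trap glucose in the cell as glucose 6-phosphate, and Hk2 is the inducible form. Hk2 read 341, 393, 282 and 419 CPM in LPS scramble, 175, 280, 196 and 316 in LPS miR-7a, 229, 266, 201 and 256 in LPS miR-29a and 322, 498, 273 and 393 in LPS miR-146a. Under vehicle, Hk2 read 295, 403, 175 and 394 CPM in vehicle scramble, 259, 239, 158 and 317 in vehicle miR-7a, 312, 323, 178 and 493 in vehicle miR-29a and 335, 404, 248 and 490 in vehicle miR-146a. It was lower with miR-29a under LPS (log2 fold change -0.57 ± 0.14, adjusted p = 0.0445, kept in 2 of 8), where all 4 libraries lay below the lowest scramble library, and the miR-7a value was alike in size but did not pass (-0.60 ± 0.20, adjusted p = 0.134, with the block adjusted p = 0.00177). Hk2 holds a miR-146a match, and its difference between miR-146a and scramble under LPS was 0.03 ± 0.18, which did not pass. Hk1, the form found in most tissues, fell with LPS in miR-29a cells (log2 fold change -0.38 ± 0.13, adjusted p = 0.0439, kept in 2 of 8), and its group means were 82.8 to 120 CPM. Hk3, the myeloid form, was called with the block alone, lower with miR-29a under LPS, with group means of 243 to 348 CPM.

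Of the genes between glucose 6-phosphate and the triose phosphates, Gpi1 encodes the isomerase that makes fructose 6-phosphate. Gpi1 read 1305, 1483, 1326 and 1324 CPM in LPS scramble, 617, 952, 754 and 1101 in LPS miR-7a, 833, 1024, 629 and 689 in LPS miR-29a and 1432, 1848, 1455 and 1235 in LPS miR-146a. Under vehicle, Gpi1 read 1445, 1745, 2261 and 2405 CPM in vehicle scramble, 1355, 1320, 1461 and 1754 in vehicle miR-7a, 1363, 2625, 1866 and 2045 in vehicle miR-29a and 1184, 1544, 1671 and 2279 in vehicle miR-146a. LPS lowered it with miR-29a (log2 fold change -1.32 ± 0.21, adjusted p = 0.000889) and with miR-7a (-0.84 ± 0.18, adjusted p = 0.0164, kept in 5 of 8), without overlap in either, while with scramble the change of -0.49 ± 0.18 did not pass (adjusted p = 0.0783, with the block adjusted p = 0.0498). Under LPS the miR-29a libraries were all below scramble (log2 fold change -0.80 ± 0.15, adjusted p = 0.0144, kept in 7 of 8), and so were the miR-7a libraries (-0.71 ± 0.17, adjusted p = 0.0511, with the block adjusted p = 0.00156).

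Phosphofructokinase, the committing step of glycolysis, has liver (Pfkl), muscle (Pfkm) and platelet (Pfkp) forms. Pfkl read 199, 202, 188 and 197 CPM in LPS scramble, 129, 189, 161 and 166 in LPS miR-7a, 138, 152, 96.8 and 96 in LPS miR-29a and 172, 210, 194 and 132 in LPS miR-146a. Under vehicle, Pfkl read 163, 315, 155 and 195 CPM in vehicle scramble, 214, 171, 203 and 175 in vehicle miR-7a, 158, 231, 165 and 188 in vehicle miR-29a and 145, 154, 123 and 178 in vehicle miR-146a. Vehicle scramble library 2 was far above the other 3 of its group, and the LPS miR-29a libraries lay below every LPS scramble library (log2 fold change -0.73 ± 0.15, adjusted p = 0.0222, kept in 4 of 8). Pfkm read 95.8, 120, 107 and 103 CPM in LPS scramble, 61.4, 96.8, 79.6 and 94.8 in LPS miR-7a, 71.6, 97.9, 64.6 and 72.2 in LPS miR-29a and 102, 135, 119 and 92.6 in LPS miR-146a. Under vehicle, Pfkm read 106, 130, 166 and 157 CPM in vehicle scramble, 96.6, 79.5, 104 and 81.6 in vehicle miR-7a, 98.3, 146.2, 134 and 116 in vehicle miR-29a and 99.3, 95.4, 108 and 108 in vehicle miR-146a. It fell with LPS in miR-29a cells (log2 fold change -0.70 ± 0.16, adjusted p = 0.00826), with no overlap. Under LPS its difference from scramble was -0.49 ± 0.14 with miR-29a (adjusted p = 0.0658, with the block adjusted p = 0.00346) and -0.39 ± 0.15 with miR-7a (adjusted p = 0.219, with the block adjusted p = 0.0267). Pfkp read 257, 254, 275 and 295 CPM in LPS scramble, 200, 211, 210 and 243 in LPS miR-7a, 192, 144, 160 and 117 in LPS miR-29a and 208, 245, 259 and 180 in LPS miR-146a. Under vehicle, Pfkp read 151, 187, 196 and 258 CPM in vehicle scramble, 184, 253, 229 and 287 in vehicle miR-7a, 137, 162, 168 and 263 in vehicle miR-29a and 127, 150, 163 and 212 in vehicle miR-146a. It was lower with miR-29a under LPS (log2 fold change -0.83 ± 0.15, adjusted p = 0.0124), with every library below the 4 scramble libraries, and the miR-7a difference was -0.33 ± 0.11 (adjusted p = 0.148, with the block adjusted p = 0.0146). Pfkfb3 encodes the enzyme that makes the activator fructose 2,6-bisphosphate. Pfkfb3 read 51.4, 55.5, 48.9 and 51.3 CPM in LPS scramble, 41.6, 43.2, 45 and 46.8 in LPS miR-7a, 50.8, 54.4, 51.3 and 55.8 in LPS miR-29a and 53.5, 52.5, 51.1 and 51.5 in LPS miR-146a. Under vehicle, Pfkfb3 read 53.8, 51.5, 49.5 and 49.9 CPM in vehicle scramble, 37, 26.2, 30.9 and 42.1 in vehicle miR-7a, 52.8, 48.3, 46.2 and 52.9 in vehicle miR-29a and 54, 48, 49 and 59.4 in vehicle miR-146a. No comparison called it. The LPS scramble, miR-29a and miR-146a groups overlapped, with a miR-29a difference of 0.04 ± 0.11. The miR-7a libraries lay below all scramble libraries under LPS (-0.23 ± 0.11, adjusted p = 0.297) and under vehicle (-0.58 ± 0.19, adjusted p = 0.269).

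Aldolase splits fructose 1,6-bisphosphate. Aldoa read 2769, 2387, 3243 and 2968 CPM in LPS scramble, 1422, 1645, 1893 and 2463 in LPS miR-7a, 2052, 1773, 1622 and 1966 in LPS miR-29a and 2870, 2559, 3344 and 2291 in LPS miR-146a. Under vehicle, Aldoa read 2688, 2974, 5479 and 4500 CPM in vehicle scramble, 2285, 1790, 2244 and 2335 in vehicle miR-7a, 2642, 3157, 3212 and 3258 in vehicle miR-29a and 1940, 1718, 2608 and 2705 in vehicle miR-146a, where library 3 of miR-146a is the uncertain reading. Vehicle scramble spread from 2688 to 5479 CPM, the LPS effect with scramble did not pass (-0.39 ± 0.23, adjusted p = 0.255), and LPS lowered Aldoa with miR-29a (log2 fold change -0.73 ± 0.14, adjusted p = 0.0031). Under LPS the miR-29a libraries were all below scramble (-0.60 ± 0.14, adjusted p = 0.0316, kept in 3 of 8), and the miR-7a difference was -0.65 ± 0.17 (adjusted p = 0.0736, with the block adjusted p = 0.00179). Aldoc was called more often than any other member, in 4 of the 13 comparisons. Aldoc read 83.4, 79.8, 102 and 90.9 CPM in LPS scramble, 61.3, 79.3, 97.9 and 108 in LPS miR-7a, 50.5, 53.1, 57.3 and 47.3 in LPS miR-29a and 94.1, 98, 112 and 61.5 in LPS miR-146a. Under vehicle, Aldoc read 109, 144, 206 and 162 CPM in vehicle scramble, 139, 122, 132 and 140 in vehicle miR-7a, 121, 141, 118 and 126 in vehicle miR-29a and 90.8, 94.1, 158 and 142 in vehicle miR-146a. LPS lowered it with scramble (log2 fold change -0.76 ± 0.19, adjusted p = 0.0192, kept in 4 of 8), with miR-7a (-0.68 ± 0.19, adjusted p = 0.0496, kept in 1 of 8) and with miR-29a (-1.29 ± 0.12, adjusted p = 3.28e-05), with no overlap each time. Under LPS the 4 miR-29a libraries, within 47.3 to 57.3 CPM, were all below scramble (-0.76 ± 0.12, adjusted p = 0.00949), while the difference with miR-7a, whose match Aldoc holds, was -0.07 ± 0.18 and did not pass. Of the other members with that match, Gpi1 differed by -0.71, Egln3 by -0.85, Pdk3 by -0.48 and Ldha by -0.30 in that comparison. Eno2, near 0 CPM, differed by -0.91, Pdha1 by -0.24, Pfkfb3 by -0.23 and Slc16a3 by -0.21. None of them passed without the block, and the median of all members tested was -0.32. Whether the match played a part was not tested.

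The lower steps yield ATP and pyruvate. Tpi1 interconverts the triose phosphates. Tpi1 read 970, 993, 1047 and 932 CPM in LPS scramble, 833, 921, 929 and 1048 in LPS miR-7a, 737, 673, 479 and 476 in LPS miR-29a and 1006, 922, 1050 and 703 in LPS miR-146a. Under vehicle, Tpi1 read 903, 1006, 1430 and 1221 CPM in vehicle scramble, 1188, 1026, 1101 and 881 in vehicle miR-7a, 854, 1126, 1023 and 926 in vehicle miR-29a and 740, 667, 787 and 910 in vehicle miR-146a. Under LPS every miR-29a library was below every scramble library (log2 fold change -0.76 ± 0.15, adjusted p = 0.021, kept in 4 of 8), and LPS lowered it in miR-29a cells (-0.77 ± 0.17, adjusted p = 0.00637). Gapdh, often used as a reference gene, was not constant here. Gapdh read 2523, 1863, 2194 and 1563 CPM in LPS scramble, 1448, 1370, 1247 and 1580 in LPS miR-7a, 1798, 1289, 1225 and 1264 in LPS miR-29a and 2413, 2010, 2534 and 1860 in LPS miR-146a. Under vehicle, Gapdh read 2565, 3641, 4408 and 3372 CPM in vehicle scramble, 2155, 2110, 3398 and 3464 in vehicle miR-7a, 2584, 3170, 2855 and 2431 in vehicle miR-29a and 2119, 1495, 2204 and 2415 in vehicle miR-146a. LPS lowered it with scramble (log2 fold change -0.75 ± 0.20, adjusted p = 0.0273, kept in 2 of 8), miR-7a (-0.97 ± 0.18, adjusted p = 0.00818) and miR-29a (-1.01 ± 0.16, adjusted p = 0.00101), each without overlap, whereas with miR-146a the change was 0.11 ± 0.16 (adjusted p = 0.785). The direct test of the miR-146a against the scramble LPS effect gave 0.86 ± 0.27 (adjusted p = 0.341), so these 2 effects are not shown to differ. Vehicle miR-146a stood at 2058 ± 395 CPM (mean ± SD, n = 4) against 3497 ± 761 in vehicle scramble (adjusted p = 0.0683).

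Pgk1, on chromosome X, makes the first ATP of the pathway. Pgk1 read 2375, 2306, 2090 and 1853 CPM in LPS scramble, 1480, 1389, 1140 and 1536 in LPS miR-7a, 1863, 1351, 1234 and 1007 in LPS miR-29a and 2464, 2100, 2127 and 1362 in LPS miR-146a. Under vehicle, Pgk1 read 2384, 2047, 3027 and 2767 CPM in vehicle scramble, 2102, 1969, 1909 and 1774 in vehicle miR-7a, 2353, 2407, 2315 and 2460 in vehicle miR-29a and 1895, 1796, 1905 and 2062 in vehicle miR-146a. It was one of the 2 genes lower with miR-7a under LPS (log2 fold change -0.65 ± 0.13, adjusted p = 0.0319, kept in 2 of 8), all 4 libraries below scramble, and LPS lowered it with miR-7a (-0.53 ± 0.12, adjusted p = 0.0251, kept in 2 of 8) and miR-29a (-0.85 ± 0.18, adjusted p = 0.00436). Library 1 of LPS miR-29a overlapped the scramble range, and that comparison did not pass (-0.69 ± 0.18, adjusted p = 0.0531, with the block adjusted p = 0.000503). Eno1 is the main enolase. Eno1 read 1890, 1739, 1908 and 1695 CPM in LPS scramble, 1260, 1422, 1303 and 1426 in LPS miR-7a, 1353, 1169, 977 and 752 in LPS miR-29a and 1619, 1554, 1589 and 1158 in LPS miR-146a. Under vehicle, Eno1 read 1888, 1708, 2785 and 2572 CPM in vehicle scramble, 2048, 1700, 1913 and 1842 in vehicle miR-7a, 1846, 2407, 2163 and 2317 in vehicle miR-29a and 1147, 1047, 1459 and 1582 in vehicle miR-146a. Every LPS group but scramble held lower values than LPS scramble without overlap, and limma called the miR-29a difference (log2 fold change -0.80 ± 0.17, adjusted p = 0.026, kept in 4 of 8) but neither that of miR-7a (-0.43 ± 0.11, adjusted p = 0.0621, with the block adjusted p = 0.0064) nor that of miR-146a (-0.31 ± 0.13, adjusted p = 0.232, with the block adjusted p = 0.0286). LPS lowered it with miR-29a (-1.08 ± 0.18, adjusted p = 0.00139) and miR-7a (-0.51 ± 0.11, adjusted p = 0.0174, kept in 4 of 8).

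Pkm encodes pyruvate kinase. Pkm read 2249, 2362, 2082 and 2018 CPM in LPS scramble, 1470, 2039, 1597 and 1788 in LPS miR-7a, 1677, 1720, 1032 and 1080 in LPS miR-29a and 2269, 2632, 2357 and 1481 in LPS miR-146a. Under vehicle, Pkm read 2295, 2734, 2756 and 2585 CPM in vehicle scramble, 2607, 2016, 2358 and 2107 in vehicle miR-7a, 2147, 2966, 2269 and 2203 in vehicle miR-29a and 1745, 1719, 1811 and 2003 in vehicle miR-146a. LPS lowered it in miR-29a cells (log2 fold change -0.85 ± 0.19, adjusted p = 0.00764) and it was lower with miR-29a than with scramble under LPS (-0.70 ± 0.18, adjusted p = 0.0476, kept in 2 of 8). In that group libraries 3 and 4 lay well below libraries 1 and 2. Pgam1, the mutase between Pgk1 and enolase, had group means of 1068 to 1524 CPM and no call without the block. Ldha turns pyruvate into lactate. Ldha read 1718, 1599, 1685 and 1541 CPM in LPS scramble, 1437, 1318, 1213 and 1370 in LPS miR-7a, 1587, 1270, 1110 and 929 in LPS miR-29a and 1777, 1470, 1654 and 1138 in LPS miR-146a. Under vehicle, Ldha read 1705, 2226, 2472 and 2117 CPM in vehicle scramble, 1876, 1927, 2299 and 1965 in vehicle miR-7a, 1753, 2332, 1948 and 1956 in vehicle miR-29a and 1356, 1140, 1438 and 1382 in vehicle miR-146a. LPS lowered it with miR-29a (-0.74 ± 0.18, adjusted p = 0.0089) and miR-7a (-0.63 ± 0.12, adjusted p = 0.00822) without overlap, and with scramble the change did not pass (-0.35 ± 0.15, adjusted p = 0.128). Under LPS its difference between miR-7a and scramble was -0.30 ± 0.11 (adjusted p = 0.173, with the block adjusted p = 0.0267). The lactate carriers Slc16a1 (group means 85.3 to 135 CPM) and Slc16a3 (65.5 to 114 CPM) were called in no comparison without the block, and the miR-29a difference of Slc16a1, which holds a miR-29a match, was 0.10 ± 0.11 under LPS.

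**Figure D4:**
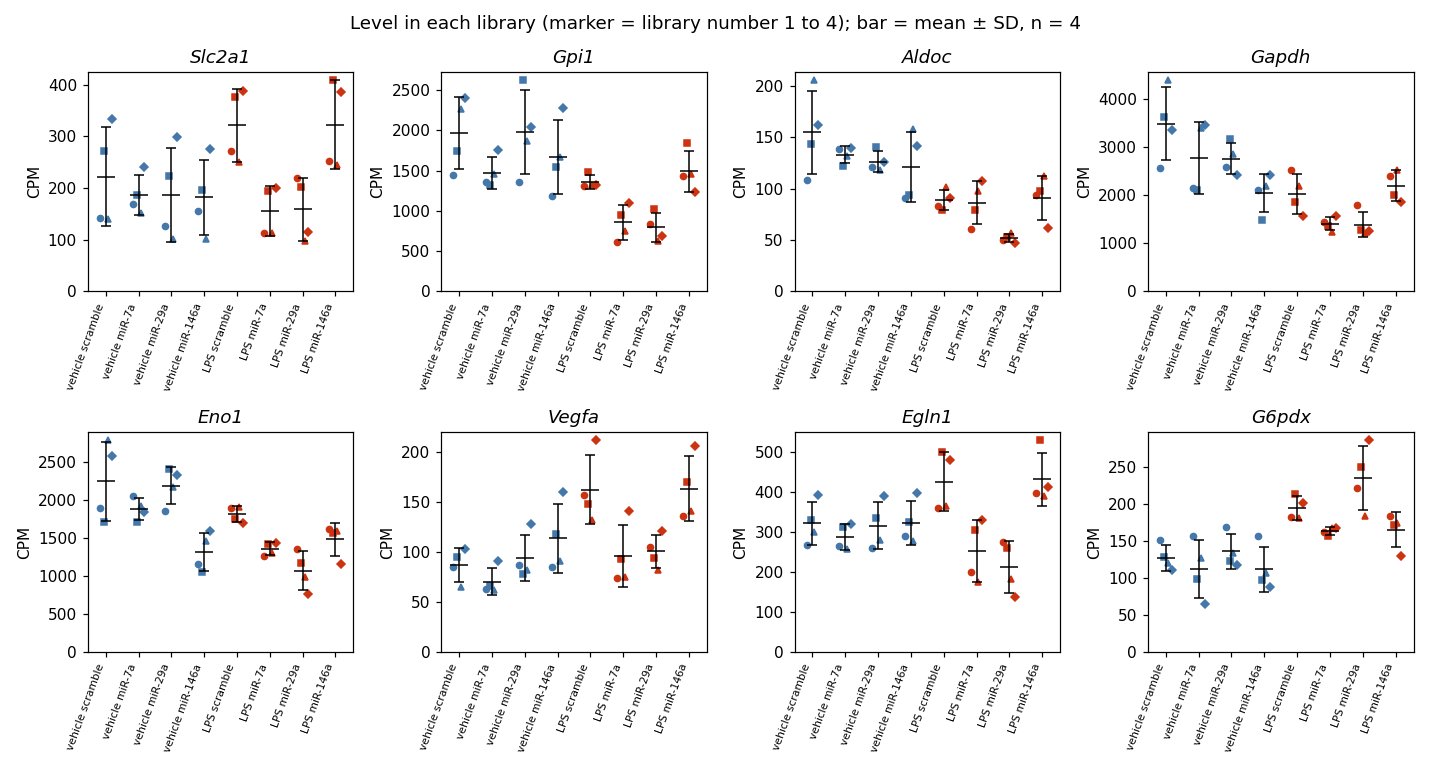
CPM (vertical axes, from 0) of 8 members in each library of the 8 groups, vehicle in blue and LPS in red, with marker shape for the library number and a bar for mean ± SD (n = 4). For Slc2a1 the LPS miR-7a and LPS miR-29a libraries lie below all LPS scramble libraries, and for G6pdx all LPS miR-29a libraries lie above all vehicle libraries of that mimic.

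Among genes of pyruvate entry, Mpc1, a subunit of the mitochondrial pyruvate carrier, rose with LPS in miR-29a cells (log2 fold change 0.76 ± 0.18, adjusted p = 0.00856). Mpc1 read 74.6, 65.9, 73 and 72.8 CPM in LPS scramble, 131, 71, 70.2 and 93.8 in LPS miR-7a, 104, 65.3, 88.2 and 86 in LPS miR-29a and 129, 77.6, 80.7 and 95.6 in LPS miR-146a. Under vehicle, Mpc1 read 66.8, 35.9, 141 and 82.1 CPM in vehicle scramble, 66.9, 111, 99.8 and 66.3 in vehicle miR-7a, 64.1, 47.5, 43.7 and 45.7 in vehicle miR-29a and 114, 72.5, 90.8 and 73.7 in vehicle miR-146a. Vehicle scramble spread widely, from 35.9 to 141 CPM, and overlapped every other group. Pdk1, the kinase that switches off pyruvate dehydrogenase, fell with LPS in miR-29a cells (log2 fold change -0.65 ± 0.18, adjusted p = 0.0201, kept in 6 of 8), from 408 ± 46.1 to 269 ± 66.6 CPM (mean ± SD, n = 4). Pdk3, Pdha1 and Mpc2 were not called without the block, with group means of 48.0 to 71.4, 140 to 196 and 12.04 to 19.8 CPM. Gpd2 feeds electrons from glycerol phosphate into the respiratory chain. Gpd2 read 57.7, 63.7, 62.3 and 62.2 CPM in LPS scramble, 65.5, 62.9, 76.7 and 63.6 in LPS miR-7a, 73, 83.7, 111 and 85 in LPS miR-29a and 50.8, 51, 46.3 and 63.2 in LPS miR-146a. Under vehicle, Gpd2 read 39.5, 48, 32.3 and 41.7 CPM in vehicle scramble, 49.1, 41, 27.2 and 42.1 in vehicle miR-7a, 64.3, 64.8, 44.2 and 70.5 in vehicle miR-29a and 54, 59.3, 60.4 and 54.5 in vehicle miR-146a. LPS raised it with scramble (log2 fold change 0.64 ± 0.15, adjusted p = 0.0121) and with miR-29a (0.52 ± 0.18, adjusted p = 0.0493, kept in 3 of 8) without overlap. With miR-7a the groups did not overlap either, but the change of 0.69 ± 0.19 did not pass (adjusted p = 0.0537). With miR-146a the change was -0.16 ± 0.14 (adjusted p = 0.58). Under LPS all miR-29a libraries lay above all scramble libraries, a difference that did not pass (0.51 ± 0.14, adjusted p = 0.0631, with the block adjusted p = 0.00427).

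The hypoxia group held the regulator Hif1a and 4 genes known as HIF targets. Hif1a read 274, 265, 254 and 286 CPM in LPS scramble, 318, 262, 219 and 283 in LPS miR-7a, 344, 294, 343 and 278 in LPS miR-29a and 282, 275, 259 and 245 in LPS miR-146a. Under vehicle, Hif1a read 247, 168, 236 and 253 CPM in vehicle scramble, 216, 305, 228 and 270 in vehicle miR-7a, 191, 166, 204 and 238 in vehicle miR-29a and 304, 271, 282 and 266 in vehicle miR-146a. LPS raised it in miR-29a cells (log2 fold change 0.64 ± 0.14, adjusted p = 0.0066) with no overlap, and its difference between miR-29a and scramble under LPS was 0.22 ± 0.12 (adjusted p = 0.307). Vegfa read 157, 148, 132 and 212 CPM in LPS scramble, 74.2, 92.7, 75.1 and 141 in LPS miR-7a, 105, 93.6, 81.9 and 121 in LPS miR-29a and 136, 170, 141 and 206 in LPS miR-146a. Under vehicle, Vegfa read 85.2, 95, 64.3 and 103 CPM in vehicle scramble, 62.5, 65.6, 61.7 and 90.5 in vehicle miR-7a, 86.8, 77.9, 82 and 128 in vehicle miR-29a and 84.6, 118, 91 and 160 in vehicle miR-146a. LPS raised Vegfa with scramble by 0.90 ± 0.19 (adjusted p = 0.00791), every LPS library lying above every vehicle library, while with miR-29a the 2 groups overlapped and the change was 0.07 ± 0.18 (adjusted p = 0.798). Under LPS the miR-29a libraries were all below scramble (log2 fold change -0.68 ± 0.17, adjusted p = 0.0406, kept in 1 of 8), and the miR-7a difference was -0.79 ± 0.22 (adjusted p = 0.0756, with the block adjusted p = 0.000307). Vegfa is the 1 gene among the 13 that holds a miR-29a match.

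Egln1 and Egln3 encode the oxygen-sensing prolyl hydroxylases. Egln1 read 361, 501, 365 and 480 CPM in LPS scramble, 200, 305, 175 and 331 in LPS miR-7a, 274, 259, 182 and 137 in LPS miR-29a and 398, 531, 390 and 412 in LPS miR-146a. Under vehicle, Egln1 read 267, 331, 299 and 393 CPM in vehicle scramble, 264, 312, 257 and 321 in vehicle miR-7a, 260, 335, 279 and 390 in vehicle miR-29a and 289, 326, 277 and 398 in vehicle miR-146a. All miR-7a and all miR-29a libraries under LPS were below all scramble libraries, and the miR-29a difference was called (log2 fold change -1.03 ± 0.21, adjusted p = 0.0219, kept in 5 of 8), that of miR-7a was not (-0.80 ± 0.21, adjusted p = 0.0683, with the block adjusted p = 0.000255). LPS lowered it in miR-29a cells (-0.62 ± 0.21, adjusted p = 0.0486, kept in 3 of 8), where library 1 of the LPS group lay within the vehicle range. Egln3 was low in all groups. Egln3 read 7.75, 7.89, 6.16 and 6.77 CPM in LPS scramble, 2.77, 4.85, 2.72 and 5.72 in LPS miR-7a, 4.66, 3.47, 2.32 and 1.49 in LPS miR-29a and 10.5, 12.6, 6.14 and 5.17 in LPS miR-146a. Under vehicle, Egln3 read 6.11, 8.83, 6.06 and 8.73 CPM in vehicle scramble, 5.86, 9.02, 9.08 and 8.92 in vehicle miR-7a, 4.08, 4.54, 4.87 and 9.6 in vehicle miR-29a and 7.97, 8.96, 5.37 and 17 in vehicle miR-146a. Every LPS miR-29a library lay below every LPS scramble library (log2 fold change -1.34 ± 0.27, adjusted p = 0.0197, kept in 6 of 8), and so did every LPS miR-7a library (-0.85 ± 0.25, adjusted p = 0.0985, with the block adjusted p = 0.0337). Bnip3, a mitophagy receptor and HIF target, lay below scramble in every LPS miR-29a library (-0.73 ± 0.22, adjusted p = 0.0808, with the block adjusted p = 0.00722) and every LPS miR-7a library (-0.55 ± 0.17, adjusted p = 0.118, with the block adjusted p = 0.00529).

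Of the pentose phosphate genes, G6pdx, on chromosome X, makes the first NADPH of the pathway. G6pdx read 182, 214, 181 and 201 CPM in LPS scramble, 162, 157, 167 and 168 in LPS miR-7a, 222, 250, 183 and 286 in LPS miR-29a and 183, 172, 174 and 130 in LPS miR-146a. Under vehicle, G6pdx read 151, 128, 120 and 110 CPM in vehicle scramble, 156, 98.4, 127 and 65 in vehicle miR-7a, 169, 123, 134 and 117 in vehicle miR-29a and 156, 97.1, 106 and 87.7 in vehicle miR-146a. LPS raised it with scramble (log2 fold change 0.63 ± 0.14, adjusted p = 0.0114), miR-29a (0.77 ± 0.16, adjusted p = 0.00482) and miR-146a (0.66 ± 0.16, adjusted p = 0.0379, kept in 2 of 8), and with miR-7a the change was 0.46 ± 0.20 (adjusted p = 0.212), with every LPS library above every vehicle library. In miR-146a cells library 4 of the LPS group lay within the vehicle range. Under LPS no difference of G6pdx between a mimic and scramble passed the threshold (-0.26 ± 0.10 with miR-7a, 0.27 ± 0.14 with miR-29a, -0.24 ± 0.12 with miR-146a), although all miR-7a libraries lay below all scramble libraries. Tkt, the transketolase, fell with LPS in miR-29a cells (log2 fold change -0.62 ± 0.20, adjusted p = 0.0345, kept in 3 of 8). Pgd, the second NADPH-forming step (group means 143 to 184 CPM), and Taldo1, the transaldolase (70.1 to 137 CPM), were called in no comparison without the block.

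The promoters of the members were read for the core of the hypoxia response element, ACGTG or its reverse complement CACGT, which overlap where they form a palindrome. RefSeq windows (GRCm38.p6) from 250 bases before to 50 bases after a transcription start were used, and all 37 members had 1 or more. The core was found in 26 of 54 member windows (48.1%), against 19.6% of 32851 windows of the same length, and 9 member windows (16.7%) held 2 or more separate matches, against 2.66%. The median GC content was 61.7% in member windows and 52.7% in all, which bears on how often a motif with CG appears, and its part was not tested. By gene, 23 of 37 members (62.2%) held the core in 1 window or more, against 21.8% of 27025 genes. Members had 54 windows for 37 genes and all genes 32851 for 27025, which bears on the share by gene. The members were picked from pathways known to hold HIF targets, so these shares describe the list and test nothing. The windows of Slc2a1 and Pgk1, the genes lower with miR-7a under LPS, and a window each of Ldha and Hk2, with 3 and 2 separate matches, are shown with the core in capitals. A further Ldha window, chr7:46846832-46847131, held 0 matches and is not shown. A match is not a site that was measured, and no binding was measured in these libraries:
Slc2a1, chr4:119108495-119108794, plus strand: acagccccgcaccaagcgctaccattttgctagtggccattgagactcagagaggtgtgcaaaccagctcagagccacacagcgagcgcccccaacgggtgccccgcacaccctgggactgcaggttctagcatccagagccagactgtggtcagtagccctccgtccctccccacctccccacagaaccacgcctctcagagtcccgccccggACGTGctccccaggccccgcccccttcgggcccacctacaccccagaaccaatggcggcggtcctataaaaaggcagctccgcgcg
Pgk1, chrX:106186850-106187149, plus strand: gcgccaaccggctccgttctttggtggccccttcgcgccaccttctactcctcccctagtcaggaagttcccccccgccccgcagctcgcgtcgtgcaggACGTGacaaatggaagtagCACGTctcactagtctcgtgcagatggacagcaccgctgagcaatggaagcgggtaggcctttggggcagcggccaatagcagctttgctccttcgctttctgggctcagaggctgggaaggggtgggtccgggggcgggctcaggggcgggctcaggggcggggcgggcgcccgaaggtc
Ldha, chr7:46845554-46845853, plus strand: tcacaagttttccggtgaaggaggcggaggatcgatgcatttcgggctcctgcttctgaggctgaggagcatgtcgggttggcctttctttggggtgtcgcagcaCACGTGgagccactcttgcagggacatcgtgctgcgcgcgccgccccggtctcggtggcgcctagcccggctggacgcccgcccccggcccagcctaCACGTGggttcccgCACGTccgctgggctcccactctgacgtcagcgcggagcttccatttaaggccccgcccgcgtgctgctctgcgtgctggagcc
Hk2, chr6:82774405-82774704, minus strand: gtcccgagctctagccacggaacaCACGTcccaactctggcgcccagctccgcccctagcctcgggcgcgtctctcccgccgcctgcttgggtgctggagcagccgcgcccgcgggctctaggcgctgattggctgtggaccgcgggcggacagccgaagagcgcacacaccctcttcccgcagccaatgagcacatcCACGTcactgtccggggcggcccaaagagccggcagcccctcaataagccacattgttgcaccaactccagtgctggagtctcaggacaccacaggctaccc

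Other genes of these pathways, 101 in 4 lists of glycolysis and transport, pentose phosphate, pyruvate dehydrogenase and hypoxia response, were read from the same fits. With miR-29a under LPS 16 of 83 tested were lower and 2 higher, with a median of -0.17 (all genes 2.61%, 2.17% and 0.01). By list, 11 of 33 hypoxia response genes were lower (median -0.50), but 3 of 31 of glycolysis and transport (median 0.08), 1 of 10 of the pentose phosphate pathway (median 0.01, with 2 higher) and 1 of 9 of pyruvate dehydrogenase (median 0.00). Those with the smallest adjusted p were Bsg (-0.95 ± 0.13), the chaperone of lactate carriers, Plod1 (-0.90 ± 0.13), a collagen lysyl hydroxylase, Dera (-0.80 ± 0.13), Anxa2 (-0.84 ± 0.14) and Bhlhe40 (-0.64 ± 0.11), a transcriptional repressor induced by hypoxia. With miR-7a under LPS 5 of 84 were lower and 0 higher (all genes 0.976% and 1.51%): Ddit4 (-1.22 ± 0.18), an inhibitor of mTORC1, Hmox1 (-1.28 ± 0.19), the haem oxygenase, Ero1l (-1.12 ± 0.22), an oxidase of the endoplasmic reticulum, Hilpda (-1.22 ± 0.25), a lipid droplet protein, and Khk (-0.75 ± 0.15), the fructokinase. Of these 5, 4 belong to the 34 hypoxia response genes tested (median -0.24), and Khk is the 1 of 31 of glycolysis and transport (median 0.04). With miR-146a under LPS Epas1, which encodes HIF-2 alpha, was higher (0.66 ± 0.13), 1 of 84, and 0 were lower (all genes 2.3% in either direction).

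LPS against vehicle moved 7 of 84 of these genes up and 8 down with scramble, shares near those of all genes (9.5% and 8.36%). Of the hypoxia response genes 6 rose and 2 fell, and of glycolysis and transport 1 rose and 4 fell. The counts were 3 of 82 up and 6 down with miR-7a (all genes 2.68% and 3.69%), 9 of 84 up and 19 down with miR-29a (12.7% and 13.9%; 8 of the 19 in glycolysis and transport, 9 in hypoxia response), and 6 of 86 up and 0 down with miR-146a (2.92% and 1.61%). The genes named are those with the smallest adjusted p in each comparison. With scramble they were Khk (-1.44 ± 0.18) and Eno3 (-1.43 ± 0.19), the muscle enolase, which fell, and Hmox1 (1.10 ± 0.16), Ero1l (1.57 ± 0.23) and Rbpj (0.99 ± 0.16), the DNA-binding factor of Notch signalling, which rose. In miR-7a cells Pgls (-1.33 ± 0.23), Anxa2 (-0.90 ± 0.17), Khk (-1.06 ± 0.23) and Eno3 (-0.79 ± 0.19) fell and Rbpj (0.67 ± 0.15) rose. In miR-29a cells Eno3 (-1.58 ± 0.17), Anxa2 (-1.19 ± 0.15), Plod1 (-1.18 ± 0.15), Khk (-1.33 ± 0.18) and Ankrd37 (-1.49 ± 0.21) fell. In miR-146a cells Pck2 (1.33 ± 0.18), Selenbp1 (0.88 ± 0.15), Hmox1 (1.12 ± 0.21), Ero1l (1.31 ± 0.26) and Rbpj (0.65 ± 0.13) rose. Under vehicle 1 of these genes was called in all, Selenbp1 with miR-146a (-0.96 ± 0.20), and the interaction tests called 0 in 83 to 85 genes tested.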

How the data were processed

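RNA of 32 BV-2 samples was depleted of ribosomal RNA and made into total RNA libraries (CORALL kit), 4 in each of 8 groups. The deposited table holds 1 estimated count per gene and library on mouse build GRCm38, as the authors obtained it with the nf-core rnaseq workflow. Decimal marks had been lost, so that 28.2% of the 590874 values above 0 were read as whole numbers that are too large. Each was restored to the reading most probable from the same gene in the other libraries, and 1.35% stayed uncertain (posterior under 0.9) and kept their gene out of the fits that use them. The restoration and the tests were checked on simulated data. Values in each comparison were filtered by expression (filterByExpr), scaled by TMM and fitted with limma voom (limma 3.58.1, edgeR 4.0.16, R 4.3.3) on the groups compared. The filter, TMM, limma and the pairwise designs follow the study's methods, which do not name voom. P-values were two-sided and adjusted by Benjamini-Hochberg over all genes tested. edgeR and DESeq2 1.42.0 were fitted on restored counts rounded to whole numbers as alternatives, with other scaling, no filter, a stricter posterior of 0.99, a fold change limit of 0.3, no structural RNA genes, the replicate block and each library left out. The block with 1 replicate number left out was added after seeing the data.

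Depth ran from 1.14 to 20.5 (in 1e6 counts) per library. Same-numbered libraries were taken as pairs where the correlation of their deviations from the group means was above 0.1 in all 4 pairs. That held for LPS against vehicle with scramble (mean 0.224) and miR-29a (0.247), under LPS for each mimic against scramble (0.339 with miR-7a, 0.344 with miR-29a, 0.273 with miR-146a) and for miR-29a under vehicle (0.271), a pairing that comes from the numbers in the labels. The members and all gene lists were chosen with earlier results of these data known. Named with every library were members called in 1 comparison or more, at most 20 by number of calls and then adjusted p, plus Hif1a, Slc2a1, Hk2, Pfkfb3, Ldha, Gapdh, Pkm and G6pdx. Of the other pathway genes at most 5 a comparison were named, by adjusted p. A list of markers of resting microglia is not reported here.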

Additional observations from a re-analysis of the deposited data

Results flagged for a closer look

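In 11 of 280 member and group combinations (3.93%) 1 library stood far from the other 3 of its group, by Dixon's test at its 95% level, which chance gives in about 1 in 20 groups. Under LPS these were Gpi1 in library 2 of scramble (1483 CPM, the others 1305 to 1326), Pdk1 in library 3 of miR-7a (226, the others 307 to 320) and Gapdh in library 1 of miR-29a (1798, the others 1225 to 1289). In LPS miR-146a they were Eno1 in library 4 (1158, the others 1554 to 1619) and Egln1 in library 2 (531, the others 390 to 412). In vehicle miR-7a they were Aldoa in library 2 (1790, the others 2244 to 2335), Vegfa in library 4 (90.5, the others 61.7 to 65.6) and Egln3 in library 1 (5.86, the others 8.92 to 9.08). In vehicle miR-29a they were Aldoa in library 1 (2642, the others 3157 to 3258), Pkm in library 2 (2966, the others 2147 to 2269) and Egln3 in library 4 (9.6, the others 4.08 to 4.87).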

How the results depend on the processing

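Of 384 log2 fold changes of called members and Pfkfb3 with 1 library left out, 257 kept their direction and side of the threshold, 125 lost the call and 2 changed sign, both Pfkfb3 for miR-29a under LPS (-0.000812 without library 4 of LPS miR-29a and -0.0063 without library 3 of LPS scramble, where leaving out any 1 library gave up to 0.05654). Of 456 under the other settings 442 kept both and 14 lost the call. Leaving out 1 library, the number of members called ranged from 3 to 8 for LPS with scramble, 2 to 6 with miR-7a, 14 to 20 with miR-29a and 0 to 2 with miR-146a, from 0 to 6 for miR-7a and 2 to 14 for miR-29a under LPS, and from 0 to 5 for miR-146a under vehicle (5 without library 1 of vehicle scramble). The share of all genes called ran in these fits from 9.32% to 22.5%, 3.28% to 6.86%, 17.6% to 30.2%, 2.26% to 4.06%, 0.473% to 2.78%, 1.24% to 5.18% and 0% to 9.61%, in the same order. With the share of all genes called by the same fit in brackets, DESeq2 called 2 for LPS with miR-146a (6.89%), 9 for miR-7a (5.99%) and 20 for miR-29a (7.75%) under LPS, 1 for miR-7a (2.03%) and 7 for miR-146a (9.97%) under vehicle and 1 for the miR-146a interaction (0.225%). edgeR called 0 for LPS with miR-146a (3.97%). Without the filter on low counts the counts were 2 for LPS with miR-146a (1.99%), 10 and 20 for miR-7a and miR-29a under LPS (1.19% and 2%) and 7 for miR-146a under vehicle (1.41%), and LPS with miR-7a called 7769 of 25529 genes, against 313 higher and 431 lower of 11681 with the filter. With the replicate block they were 10 for LPS with scramble (30%), 19 for miR-7a (15.9%), 26 for miR-29a (19.9%) and 3 for miR-146a (15.2%) under LPS and 1 each for the miR-7a and miR-29a interactions (0.195% and 0.134%). Some comparisons did not meet the pairing rule, because 1 pair or more did not pass its limit of 0.1. There the block gave 4 for LPS with miR-146a (9.31%), 1 for miR-7a (1.88%) and 6 for miR-146a (11.4%) under vehicle. Averaged over the 4 pairs, the correlation was still 0.175, 0.0943 and 0.171, in the same order. The block without 1 replicate number gave 4 to 11 (4, 9 and 11) for LPS with scramble (12.3% to 29.4%). Under LPS it gave 9 to 19 for miR-7a (6.46% to 14.4%), 24 to 26 for miR-29a (10.9% to 18.6%) and 0 to 5 (0, 1 and 5) for miR-146a (3.8% to 20.2%). The cause of these differences was not tested. In the limma fits with the filter and all libraries, low counts kept Ldhb out of every comparison and Eno2 out of 8 of 13.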
